A study of Mus musculus with 4 samples.

Results

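Pit cells sorted for a retained nuclear GFP label held more transcript of the surface products Tff1 and Psca, the calpain Capn9, the glutathione transferase Gsta1 and the galectin Lgals4, and less of Spp1 and Birc5, than pit cells sorted for Epcam alone. Pit cells, also called surface mucous cells, were the 884 cells of cluster 2 in the authors' annotation, out of 4449 cells in 10 clusters. They came from 4 single-cell libraries of stomach epithelium of Rosa26iH2b-GFP mice, 14 weeks old, in which doxycycline switches on a histone H2b-GFP fusion protein and its withdrawal lets dividing cells dilute it. All mice had received doxycycline and then a chase without it, and were female according to the methods. The Epcam+ sort took viable Epcam-positive cells negative for Cd45 and Cd31. The GFP+ sort took the Epcam-positive cells that were also GFP-positive. GFP-positive cells were not gated out of the Epcam+ sort. Each sort had 2 libraries, with 363 and 452 pit cells in Epcam+ replicates 1 and 2, and 42 and 27 in GFP+ replicates 1 and 2. The methods state that sorted cells of 2 mice were combined for loading. No source shows that the replicates were separate animals, so the p-values measure the spread between libraries, which may be technical.

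Pit cells line the gastric surface and the pits that open onto the glands. They secrete mucin, trefoil peptides and gastrokines that shield the stomach wall from acid, and they carry enzymes that clear reactive compounds. They arise from dividing precursors in the isthmus, migrate upward while they mature, and are shed from the surface, so that the population turns over quickly.

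The defining markers were those of pit cells in every library. Without TMM scaling, the summed pit cells held 52037, 55126, 78148 and 95319 CPM of Tff1 (CPM is the UMI count of a gene scaled to a fixed total per sum) in Epcam+ replicates 1 and 2 and GFP+ replicates 1 and 2, while the neck cells of cluster 0 held 280, 180, 52.4 and 22.3. Muc5ac, the surface mucin, was at 2517, 2974, 2985 and 3243 CPM in pit cells and at most 36.6 CPM in each neck sum. Psca did not mark pit cells alone, because the chief cells of cluster 1 held 4051, 4720, 4297 and 4967 CPM of it, above the 2309, 2351, 3645 and 4066 CPM of pit cells. Krt20 was scarce, at 40, 48, 8 and 2 UMIs. No pit cell of any library had a UMI of the squamous factor Trp63, but neither had the neck, chief or isthmus sums, so this does not set pit cells apart. The authors had removed cells with counts of Ptprc or Pecam1 before deposit, so the absence of these genes is no check.

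Pit cells were 22.1% and 23.8% of all cells in the Epcam+ libraries and 8.99% and 6.08% in the GFP+ libraries (exact two-sided permutation test over libraries, p = 0.333, the smallest p that 2 against 2 allows). The pit sums held 14472329, 16135808, 2882762 and 1730595 UMIs. A GFP+ pit cell was read more deeply, with medians of 66631 and 63533 UMIs per cell against 39342 and 34707, and 6619.5 and 6278 genes against 5549 and 5204.5. The libraries also differed in their load of chief cell transcripts, since Clps, Pla2g1b and Pgc together took 32.3% and 35.2% of all UMIs in the Epcam+ libraries and 58.4% and 72.7% in the GFP+ libraries. Within pit cells their median share was 0.740%, 0.622%, 0.593% and 0.438%, and 146, 166, 12 and 4 pit cells exceeded 1%. Libraries shared 4 cell barcodes in all, none of them between pit cells.

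Of 10983 genes tested in the summed pit cells, 23 were higher in GFP+ than in Epcam+ (0.209% of the genes tested) and 17 were lower (0.155%), by edgeR's quasi-likelihood test at a Benjamini-Hochberg adjusted p under 0.05. At an unadjusted p under 0.05 there were 1754 genes. Values from here on are CPM of the pit sum after TMM scaling, called scaled CPM, in the order Epcam+ replicate 1, Epcam+ replicate 2, GFP+ replicate 1 and GFP+ replicate 2. Rose and fell refer to GFP+ relative to Epcam+ and are used only for genes past this threshold. Both GFP+ libraries lay above both Epcam+ libraries for 22.8% of all tested genes and below both for 26%, so that separation alone set no gene apart. A sum over cells cannot tell apart a change within each pit cell and a change in the mix of younger and older pit cells.

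**Figure D1:**
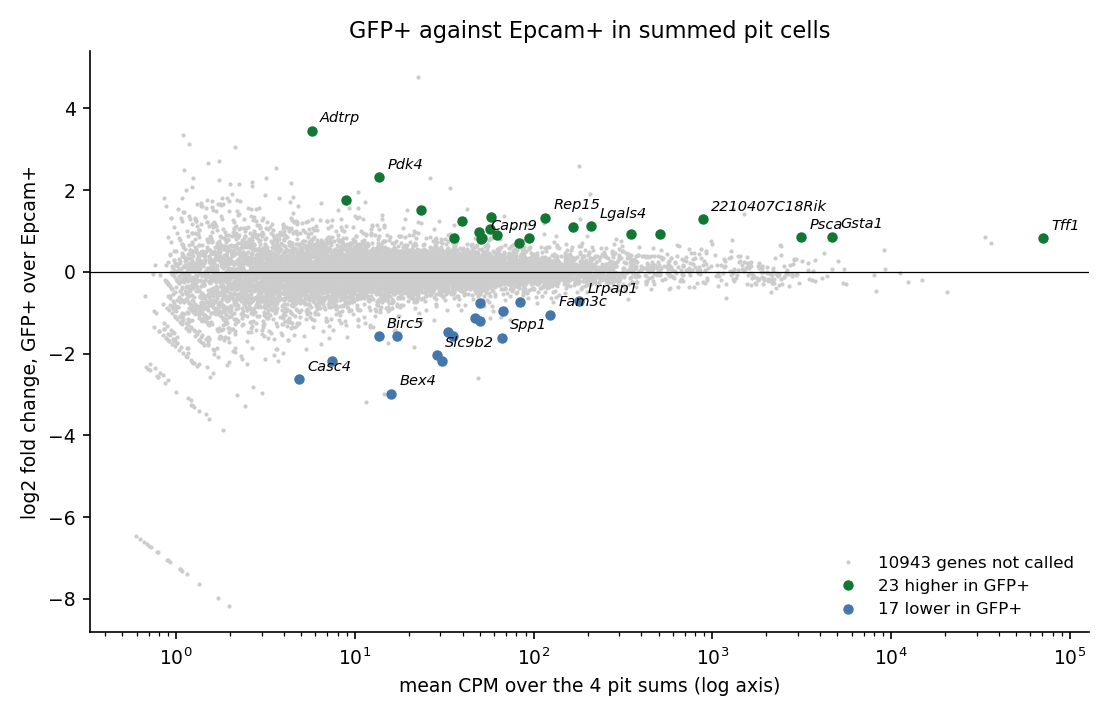
Each point is a gene tested in the summed pit cells, with the mean scaled CPM of the 4 sums on a log x axis and the log2 fold change of GFP+ over Epcam+ on the y axis. The 23 genes that rose (green) reached from Adtrp at low level to Tff1, the most abundant of them, and the 17 that fell (blue) all had a mean under 200 CPM.

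Promoter sequence is shown for genes at both ends of the comparison, with a search for known binding elements of stress response factors, which were chosen for this search and not taken from the study. The 250 bases before the RefSeq start are given for Gsta1 (chr9:78230419-78230668, plus strand), Lgals4 (chr7:28833544-28833793, plus strand) and Capn9 (chr8:124575861-124576110, plus strand), which rose, and for Birc5 (chr11:117848987-117849236, plus strand), which fell, in build GRCm38.p6. Capitals mark matches to a heat shock element, read as GAANNTTC or TTCNNGAA.
Gsta1: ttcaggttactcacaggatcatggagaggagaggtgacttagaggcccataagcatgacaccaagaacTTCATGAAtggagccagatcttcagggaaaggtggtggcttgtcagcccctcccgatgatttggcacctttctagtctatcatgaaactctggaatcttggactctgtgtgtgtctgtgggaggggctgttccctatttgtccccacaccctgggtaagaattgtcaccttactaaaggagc
Lgals4: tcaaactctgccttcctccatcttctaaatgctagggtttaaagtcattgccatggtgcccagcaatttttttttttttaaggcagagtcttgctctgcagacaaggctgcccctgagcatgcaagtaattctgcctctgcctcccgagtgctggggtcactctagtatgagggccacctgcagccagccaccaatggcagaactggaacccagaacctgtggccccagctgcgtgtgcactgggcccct
Capn9: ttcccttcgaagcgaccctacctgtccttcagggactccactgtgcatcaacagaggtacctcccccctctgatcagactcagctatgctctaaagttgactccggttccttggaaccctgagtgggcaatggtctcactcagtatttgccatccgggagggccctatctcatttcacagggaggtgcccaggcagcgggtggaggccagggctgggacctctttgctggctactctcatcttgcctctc
Birc5: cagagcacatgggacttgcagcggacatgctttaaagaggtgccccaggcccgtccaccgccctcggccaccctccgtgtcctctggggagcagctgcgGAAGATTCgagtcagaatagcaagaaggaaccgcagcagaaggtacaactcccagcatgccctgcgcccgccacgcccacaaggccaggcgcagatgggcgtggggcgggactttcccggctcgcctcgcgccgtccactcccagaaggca
The match lay 182 to 175 bases before the start of Gsta1 and 151 to 144 bases before that of Birc5, and the other pair held none. RefSeq promoters matched 32 of the 40 genes that passed the test, 44 promoters in all. Of the 44, 7 held the element on either strand, as did 12.8% of all 32851 promoters of the same length. Counted by gene, it stood before 4 of the 19 matched genes that rose and before 3 of the 13 that fell. Counts by gene are not comparable with that share, because a gene with several promoters has several chances to match. The AP-1 element (TGANTCA, 6.75% of all promoters) matched AA467197 and Celf2, the antioxidant element (TGACNNNGC, 10.2%) matched Adtrp, Fundc2 and Ppp1r3a, the cyclic AMP element (TGACGTCA, 1.55%) matched 2210407C18Rik, and the C/EBP-ATF element (TGATGCAA, 0.791%) matched Avil. The ER stress element matched none of the 44 and 0.113% of all promoters. These are matches of letters and carry no measurement of a factor.

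Among the secreted and surface products of pit cells, Tff1 and Psca rose. Tff1, a trefoil peptide of the gastric mucus (chr17:31161395-31165277, minus strand), stood at 49513, 53025, 79760 and 102042 scaled CPM. Both GFP+ libraries were above both Epcam+ libraries, and the rise was 1.77-fold (log2 0.83 ± 0.11 SE, adjusted p = 0.043). Psca, a lipid-anchored protein of the cell surface (chr15:74714839-74717069, plus strand), stood at 2197, 2262, 3721 and 4353 scaled CPM, a rise of 1.81-fold (log2 0.86 ± 0.10 SE, adjusted p = 0.024). Of the 15 products tested, 2 rose and none fell, and the median log2 fold change was 0.32, against -0.004 over all genes tested. Without overlap 6 (40%) lay above and 2 (13.3%) below, against 22.8% and 26% of all genes tested.

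The gastrokines, which pit cells secrete alongside the mucin, were highest in GFP+ replicate 2 and did not pass the test. Gkn1 stood at 23622, 30711, 32261 and 57077 scaled CPM (log2 0.72 ± 0.24 SE, adjusted p = 0.22). Gkn2 stood at 19683, 28019, 30696 and 55032 scaled CPM (log2 0.85 ± 0.26 SE, adjusted p = 0.19). In both, GFP+ replicate 1 lay close to Epcam+ replicate 2, and the gap between the sorts was within the spread of the libraries. Without GFP+ replicate 2 their log2 fold changes were 0.25 and 0.36, and without GFP+ replicate 1 they were 1.07 and 1.20. Muc5ac stood at 2395, 2860, 3047 and 3472 scaled CPM (log2 0.31, adjusted p = 0.24), and Ctse, an aspartic protease of surface cells, at 748, 792, 1350 and 1104 (log2 0.67, adjusted p = 0.070). Tff2, the trefoil peptide of neck cells, was at 24502, 23276, 21383 and 12510.5 scaled CPM (log2 -0.50, adjusted p = 0.31).

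**Figure D2:**
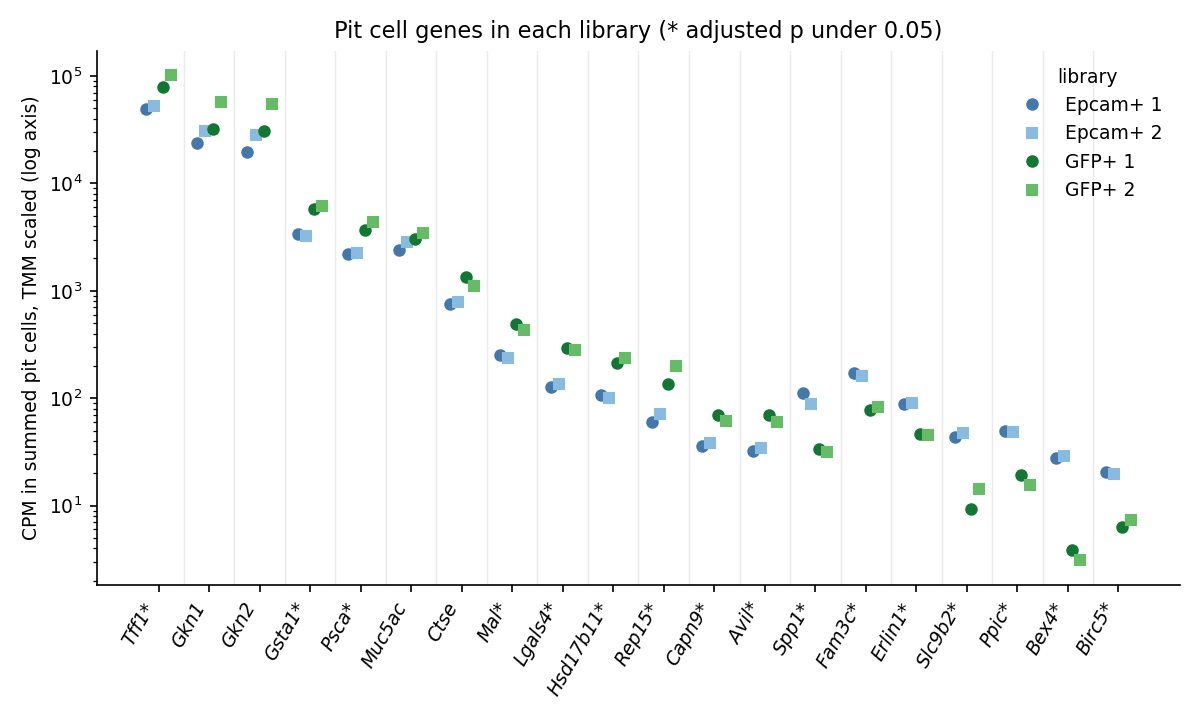
Scaled CPM on a log axis of 20 genes in the summed pit cells of each library, with circles for replicate 1, squares for replicate 2, blue for Epcam+ and green for GFP+. The GFP+ pairs lie above the Epcam+ pairs for the risen genes from Tff1 to Avil and below them from Spp1 to Birc5, while GFP+ replicate 1 sits beside Epcam+ replicate 2 for Gkn1, Gkn2 and Muc5ac.

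Genes linked to pit cell maturation did not move as 1 group. Of 27 tested, Capn9 rose and none fell, and the median log2 fold change was 0.15. In this list 11 (40.7%) lay above and 6 (22.2%) below without overlap, against 22.8% and 26% of all genes tested. Capn9, a calpain protease of the digestive tract (chr8:124576111-124618731, plus strand), stood at 36.3, 38.2, 69.4 and 61.9 scaled CPM, a rise of 1.78-fold (log2 0.83 ± 0.11 SE, adjusted p = 0.037). It had a UMI in 76.2% and 70.4% of GFP+ pit cells and in 32.0% and 37.8% of Epcam+ pit cells, at the unequal depths given above. Its call was lost in 8 of the alternative settings, among them the fit to cells thinned to 1 depth (log2 0.77, adjusted p = 0.051).

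The most abundant maturation genes did not pass the test. Cystm1, which encodes a small cysteine-rich membrane protein, stood at 2313, 2483, 2103 and 2402 scaled CPM (log2 -0.09, adjusted p = 0.69). Cldn18, the claudin of gastric tight junctions, stood at 1314, 1244, 1300 and 1385 (log2 0.07, adjusted p = 0.75). Agr2, a protein disulphide isomerase needed to fold mucins, stood at 2407, 2546, 1921 and 1619 (log2 -0.48, adjusted p = 0.10). The transcription factor Foxq1, which mucin production in pit cells requires, stood at 1240, 979.6, 1397 and 1055 (log2 0.15, adjusted p = 0.70). The retinol and alcohol dehydrogenase Adh7 stood at 373, 395, 450.3 and 547 (log2 0.38, adjusted p = 0.19), and the zinc finger factor Klf4 at 1134, 1074, 1300 and 1548 (log2 0.37, adjusted p = 0.17).

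Gsta1, a glutathione transferase that conjugates electrophiles, rose among 27 tested genes of surface defence and detoxification. Gsta1 (chr9:78230656-78242684, plus strand) stood at 3348, 3233, 5788 and 6166 scaled CPM, a rise of 1.82-fold (log2 0.86 ± 0.08 SE, adjusted p = 0.015). The replicates of each sort lay close together and the sorts did not overlap. Gsta1 has close relatives among the alpha-class transferases, and the effect of reads that they share on its count was not tested. In the list 1 gene rose and none fell, and the median was 0.16. Its members lay above without overlap in 13 cases (48.1%) and below in 3 (11.1%), against 22.8% and 26% of all genes tested. Gsta4, another alpha-class transferase, stood at 2077, 2082, 2587 and 2938 (log2 0.41, adjusted p = 0.11), Mgst3, a microsomal transferase, at 2659, 2576, 3013 and 3009 (log2 0.20, adjusted p = 0.27), and the carbonic anhydrase Car2 at 2575, 2602, 3122 and 3198 (log2 0.29, adjusted p = 0.15).

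Further rises outside these lists included Lgals4, Mal, Hsd17b11 and Tmsb10. Lgals4, a galectin that binds sugars of glycoproteins (chr7:28833854-28841708, plus strand), stood at 128, 136, 292 and 284 scaled CPM, a rise of 2.18-fold (log2 1.13 ± 0.10 SE, adjusted p = 0.015). Mal, a raft protein of apical transport, stood at 251, 235, 487 and 433 scaled CPM (1.89-fold, adjusted p = 0.022). Hsd17b11, a dehydrogenase of lipid droplets, stood at 108, 101, 214 and 236 scaled CPM (2.15-fold, adjusted p = 0.015). In each of these the library-to-library difference within a sort was small beside the gap.

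Tmsb10, which binds actin monomers, stood at 373, 328, 712 and 617 scaled CPM (1.90-fold, adjusted p = 0.026). Rep15, an effector of the GTPase Rab15, stood at 59.5, 71.6, 136 and 198 scaled CPM (2.51-fold, adjusted p = 0.041). The transcript 2210407C18Rik stood at 588, 435, 1386 and 1113 scaled CPM (2.45-fold, adjusted p = 0.032). Rises also passed the test for the polo-like kinase Plk3 (2.08-fold), the carboxylesterase Ces2c (1.86-fold), the sphingolipid enzyme Degs2 (1.64-fold), AA467197 (2.35-fold), Smim24 (2.54-fold) and Gm3336 (1.78-fold). Avil, an actin-binding protein of the villin family that also marks tuft cells, stood at 32.1, 34.6, 69.7 and 60.004 scaled CPM (1.97-fold, adjusted p = 0.026). The tuft markers Dclk1, Trpm5 and Pou2f3 had at most 3 UMIs in any pit sum.

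Several of the risen genes had few UMIs. Adtrp, which regulates tissue factor pathway inhibitor, had 15, 15, 28 and 18 UMIs (log2 3.45 ± 0.34 SE, adjusted p = 0.015). Pdk4, a kinase that restrains pyruvate dehydrogenase, had 64, 88, 81 and 27 UMIs, of which 1 cell gave 39.5% in GFP+ replicate 1 and 1 cell gave 59.3% in GFP+ replicate 2 (log2 2.33, adjusted p = 0.026). Npb, neuropeptide B, had 67, 63, 42 and 20 UMIs (log2 1.76, adjusted p = 0.045). Rnase4, whose locus is shared with the angiogenin gene, had 203, 199, 118 and 44 UMIs (log2 1.51, adjusted p = 0.037). Lrrc26, an auxiliary subunit of potassium channels, and Myo1a, a brush border myosin, passed at adjusted p = 0.049 each (1.76-fold and 1.78-fold), and their calls were lost in 10 of 19 and 9 of 18 alternative fits.

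**Figure D3:**
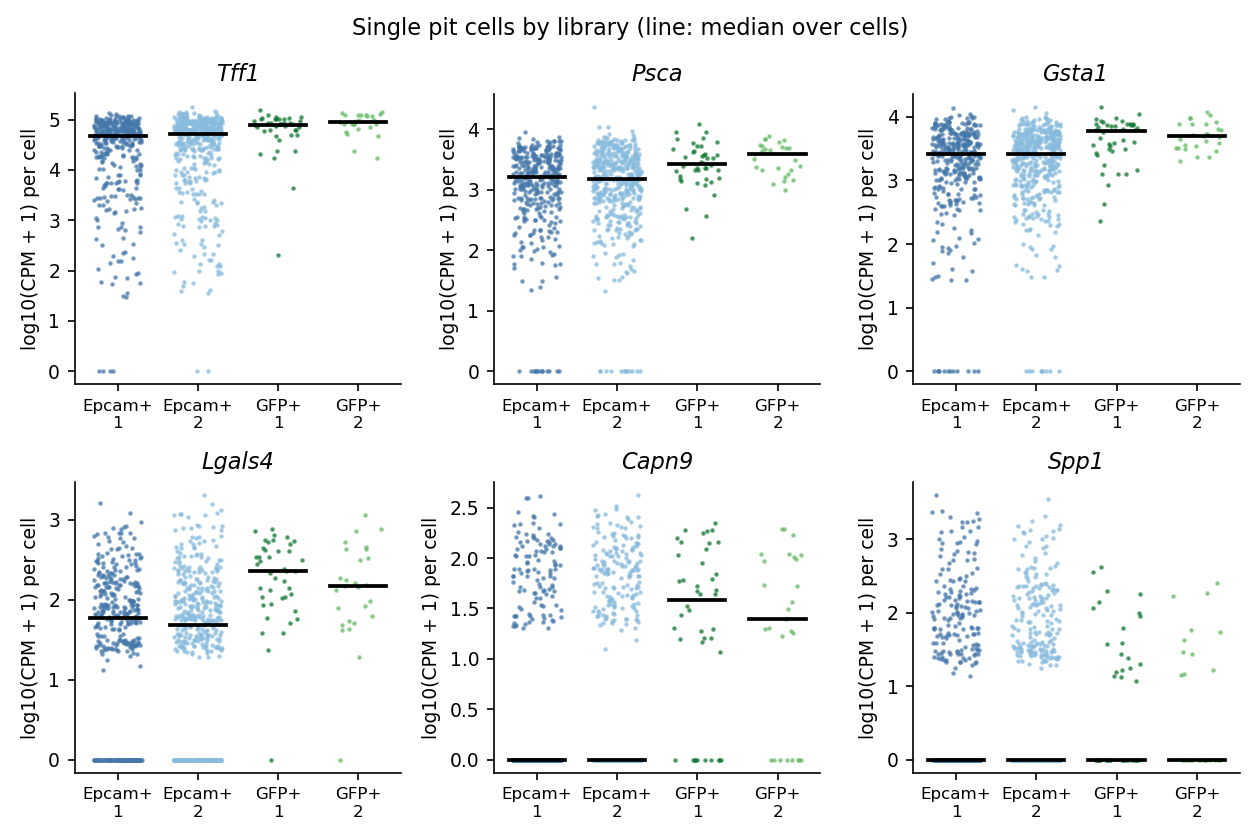
Each point is a pit cell, placed by its log10(CPM + 1) of the gene named above each panel and its library, and the black line is the median over cells. The low tail of Tff1, Psca and Gsta1 in the Epcam+ libraries is nearly empty in the GFP+ libraries, and the median of Spp1 is 0 in all 4.

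Single cells showed where the sums differed. The lower quartile of Tff1 was 12736 and 16900 CPM over Epcam+ pit cells and 59276 and 76235 CPM over GFP+ pit cells, while the highest cells were at 132859, 181207, 158904 and 145322 CPM. The lower quartile of Psca was 595, 592, 1588 and 2147 CPM, and its median was 1608, 1521, 2660 and 3979 CPM. The lower quartile of Gsta1 was 1069, 1006, 2987 and 3399 CPM. The upper quartiles were also higher in GFP+, at 73042, 80551, 101335 and 122904 CPM for Tff1. They were 3268, 3215, 4360 and 5246 CPM for Psca and 4721, 4672, 7626 and 7672 CPM for Gsta1. As a ratio, the gap between the sorts was wider at the lower quartile than at the upper quartile for these genes. The highest cells come from unequal numbers of cells per library. Gkn1 had lower quartiles of 889, 1348, 10913 and 25135 CPM. Cells of 1 library are not replicates, so these quantiles are given without a test.

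Genes of the isthmus and the immature epithelium lay on the other side. Of 20 tested, Birc5 fell and none rose, and the median log2 fold change was -0.55. None lay above and 16 (80%) lay below without overlap, against 22.8% and 26% of all genes tested. Birc5, survivin, a protein of the dividing cell (chr11:117849251-117855743, plus strand), stood at 20.6, 19.8, 6.37 and 7.42 scaled CPM, 0.34 times the Epcam+ level (log2 -1.57 ± 0.20 SE, adjusted p = 0.035). It rested on 18 and 12 UMIs in the GFP+ sums. Its call was lost without GFP+ replicate 1 (adjusted p = 0.090), and without the pit cells that held a UMI of Mki67 or Top2a its log2 fold change was -0.18 (adjusted p = 0.93).

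The other immature genes did not pass the test. Mki67, a marker of cycling cells, stood at 29.0, 35.1, 11.0 and 18.6 scaled CPM (log2 -1.21, adjusted p = 0.089). Stmn1, which destabilises microtubules in dividing cells, stood at 80.6, 70.8, 46.0 and 36.5 (log2 -0.85, adjusted p = 0.070). Sox9, a factor of progenitor cells, stood at 149, 154, 92.1 and 106 (log2 -0.63, adjusted p = 0.073), and Cenpf, a kinetochore protein, at 20.97, 24.6, 4.25 and 11.1 (log2 -1.74, adjusted p = 0.081). H2afz, a histone variant, stood at 667, 643, 517 and 461 (log2 -0.42, adjusted p = 0.11). Pcna and Tyms, genes of DNA replication, overlapped between the sorts.

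The share of pit cells with a UMI of Mki67 or Top2a depended on depth. After each cell was thinned to 26019 UMIs, it was 35.8% (Wilson 95% interval 30.8 to 41.1%) and 32.5% (28.1 to 37.2%) in the Epcam+ libraries. It was 21.95% (12.0 to 36.7%) and 18.5% (8.18 to 36.7%) in the GFP+ libraries. The means were 34.1% ± 2.32 (SD, n = 2) and 20.2% ± 2.43 (SD, n = 2), a difference of -13.9 percentage points (exact two-sided permutation test, p = 0.333, the smallest p that 2 against 2 allows). Thinning left out 36, 52, 1 and 0 shallower cells. Unthinned shares were 43.8%, 37.6%, 45.2% and 37.0%, with a difference of 0.43 points. The intervals cover counting error only.

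Among the genes that fell was Spp1, whose product is osteopontin. Spp1 encodes a secreted phosphoprotein (chr5:104435118-104441050, plus strand) and stood at 112, 87.9, 33.6 and 31.5 scaled CPM, 0.33 times the Epcam+ level (log2 -1.61 ± 0.17 SE, adjusted p = 0.017). It had a UMI in 45.2%, 42.5%, 47.6% and 40.7% of cells, at unequal depths. Over cells its upper quartile was 83.5, 50.4, 33.5 and 27.2 CPM, in the library order given. Without pit cells over 1% of chief UMIs its log2 fold change was -0.58 (adjusted p = 0.48).

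Bex4, an X-linked gene (chrX:136138996-136140443, plus strand), stood at 27.8, 29.0, 3.89 and 3.09 scaled CPM (log2 -2.98 ± 0.22 SE, adjusted p = 0.015), from 11 and 5 UMIs in the GFP+ sums. Slc9b2, a sodium-proton exchanger, stood at 43.7, 47.5, 9.21 and 14.2 (log2 -2.04, adjusted p = 0.015). Ppic, a cyclophilin, stood at 49.7, 48.4, 19.1 and 15.5 (log2 -1.47, adjusted p = 0.015). Fam3c, a secreted cytokine-like protein, stood at 172, 160, 78.2 and 82.9 (log2 -1.05, adjusted p = 0.017). The sorts did not overlap for any of these genes, though the GFP+ libraries differed from each other for Slc9b2, whose log2 fold change was -2.31 to -1.68 when 1 library was left out. Erlin1 of endoplasmic reticulum lipid rafts (log2 -0.97), the glycogen-targeting subunit Ppp1r3a (log2 -1.12), the secreted Wfdc2 (log2 -1.20), the carboxypeptidase Cpn1 (log2 -1.58), the caveolar protein Cavin2 (log2 -1.57) and the lincRNA 2210404E10Rik (log2 -2.18) fell too. So did the RNA-binding Celf2 (log2 -2.17) and Casc4 (log2 -2.62), on 8 and 4 and on 4 and 2 UMIs in the GFP+ sums, the receptor chaperone Lrpap1 (log2 -0.72), the histone variant H2afv (log2 -0.74) and Fundc2 of the mitochondrial outer membrane (log2 -0.76), whose call was lost in 10 of 19 alternative fits.

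Levels in the isthmus cells of cluster 3 are set beside these, without TMM scaling and without a test, since they come from the same Epcam+ libraries. Tff1 stood at 21340 and 22719 CPM in isthmus cells of Epcam+ replicates 1 and 2. Gsta1 was at 1353 and 1388 CPM there, against 3519 and 3361 CPM in Epcam+ and 5671 and 5760 CPM in GFP+ pit cells. Capn9 was at 3.502 and 7.25 CPM, against 38.1 and 39.7 CPM in Epcam+ and 68.0 and 57.8 CPM in GFP+ pit cells. Spp1 was at 235 and 486 CPM, against 118 and 91.3 CPM in Epcam+ and 33.0 and 29.5 CPM in GFP+ pit cells. Bex4 was at 98.1 and 100.4 CPM, against 29.2 and 30.2 CPM in Epcam+ and 3.82 and 2.89 CPM in GFP+ pit cells. For these genes the Epcam+ pit cells lay between the Epcam+ isthmus cells and the GFP+ pit cells. The isthmus cells of the GFP+ libraries, 17 and 10 cells, held more Tff1 and Psca than those of the Epcam+ libraries, with Tff1 at 40605 and 36268 CPM, and Psca at 1132 and 1506 CPM against 787 and 770 CPM. Higher values of both in GFP+ were thus also seen in isthmus cells, where no test was run.

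**Figure D4:**
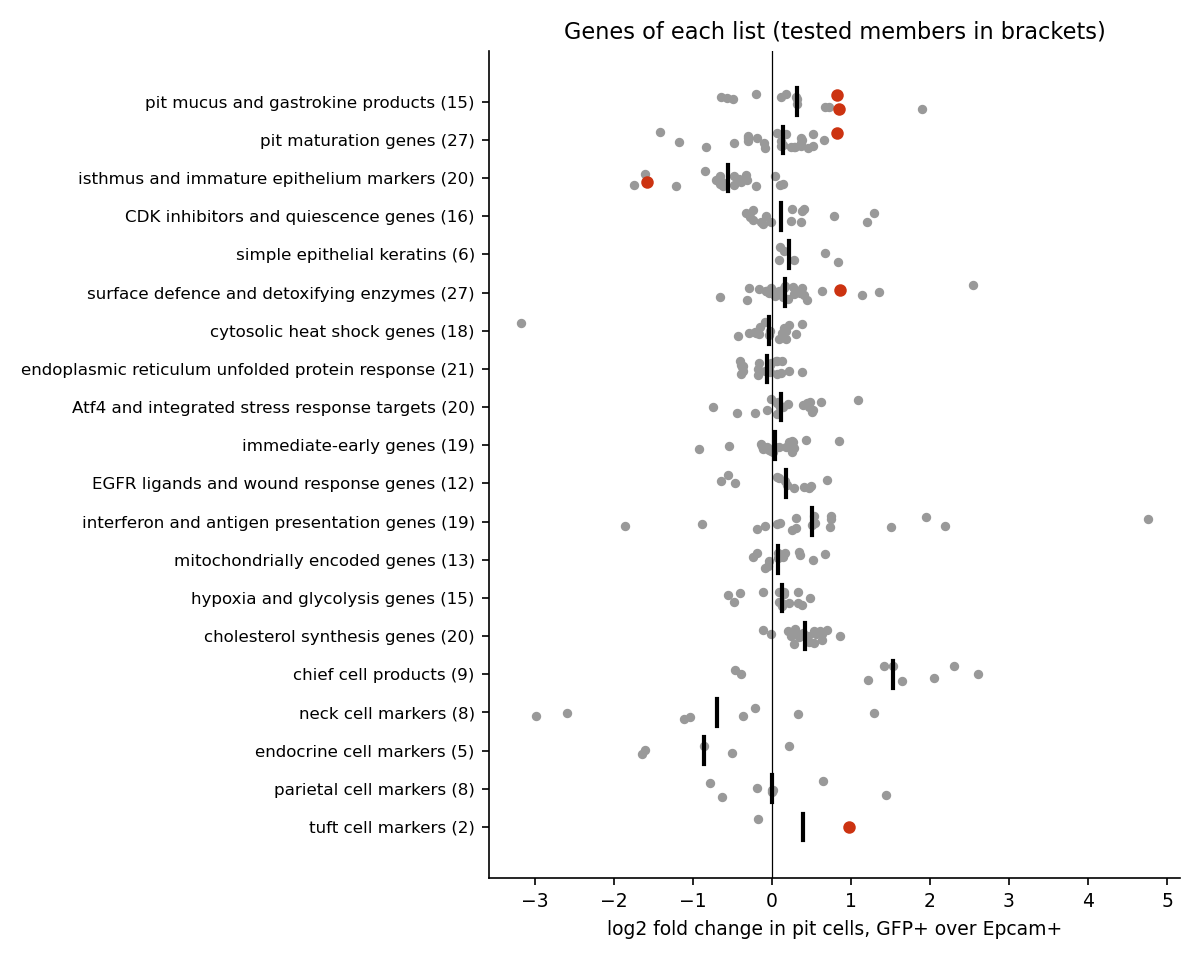
The log2 fold change of GFP+ over Epcam+ in pit cells for each tested gene of 20 lists, with genes past the threshold in red and the list median as a black bar. Most points of the isthmus list lie left of 0 and most of the cholesterol synthesis list right of it, while the heat shock, unfolded protein response and immediate-early lists are centred near 0.

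Stress genes, on which the study centred, did not pass the test in pit cells. None of 18 cytosolic heat shock genes, 21 genes of the endoplasmic reticulum unfolded protein response, 20 Atf4 and integrated stress response targets or 19 immediate-early genes passed, and their medians were -0.03, -0.06, 0.12 and 0.04. Atf4, the transcription factor of the integrated stress response, stood at 246, 210, 397 and 249 scaled CPM (log2 0.52 ± 0.20 SE, adjusted p = 0.27), high in GFP+ replicate 1 only. Its transcriptional target Atf3 stood at 2041, 1604, 2184 and 1718 (log2 0.10, adjusted p = 0.79). The chaperone Hspa8 stood at 1823, 1777, 1913 and 2041 (log2 0.13, adjusted p = 0.47), and the chaperone Hspa5 of the endoplasmic reticulum at 2065, 1786, 2386 and 1816 (log2 0.13, adjusted p = 0.70). Among immediate-early genes, Fos stood at 3920, 3327, 4118 and 3193 (log2 0.01, adjusted p = 0.98) and Jun at 3370, 2958, 3944 and 3396 (log2 0.21, adjusted p = 0.37). The stress genes named here did not pass the same test in chief cells of cluster 1 either. Their log2 fold changes there were all positive and included 0.77 for Atf3 (adjusted p = 0.49), 0.44 for Hspa8 (adjusted p = 0.51) and 0.20 for Atf4 (adjusted p = 0.62). The paper compared single cells of cluster 1, with inferred transcription factor activity and gene set scores. It also reported Atf4 and Hspa8 protein in most GFP+ cells near the basal layers. The test used here compares sums per library, with few libraries and no protein measure. It therefore cannot decide on the paper's finding in chief cells. By edgeR's interaction of sort and cell type, Atf3 differed between pit and chief cells by a log2 of -0.56 (adjusted p = 0.69).

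No gene passed in 16 CDK inhibitors and quiescence genes, 6 simple keratins, 12 EGFR ligand and wound response genes, 13 mitochondrially encoded genes or 15 hypoxia and glycolysis genes. Their medians were 0.12, 0.22, 0.18, 0.08 and 0.13. Cdkn1a, the CDK inhibitor p21, stood at 75.6, 64.5, 215 and 100.2 scaled CPM (log2 1.21, adjusted p = 0.12), with GFP+ replicate 1 far above GFP+ replicate 2. The keratin Krt19 stood at 2107, 1577, 3367 and 2483 (log2 0.67, adjusted p = 0.14) and Krt8 at 3597, 3181, 4332 and 3902 (log2 0.28, adjusted p = 0.23). The growth factor Hbegf stood at 238, 233, 277 and 250.5 (log2 0.17, adjusted p = 0.44), the mitochondrial mt-Co1 at 8649, 9232, 9753 and 9118 (log2 0.08, adjusted p = 0.68) and the glycolytic Gapdh at 808, 713, 1037 and 872 (log2 0.33, adjusted p = 0.23).

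Cholesterol synthesis genes were placed mostly upward without a gene past the threshold. Of 20 tested, 13 (65%) lay above and none below without overlap, against 22.8% and 26% of all genes tested. The median was 0.42. Hmgcs1, which makes the precursor of mevalonate, stood at 661, 528, 821 and 936 scaled CPM (log2 0.56, adjusted p = 0.11), and Msmo1, a sterol oxidase, at 281, 211, 401 and 359 (log2 0.63, adjusted p = 0.12).

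In 19 interferon and antigen presentation genes the median was 0.51 with none past the threshold, and several values came from GFP+ replicate 2 alone. B2m, the light chain of class I molecules, stood at 82.1, 106.9, 74.7 and 254 scaled CPM, and Irf7, an interferon-regulated factor, at 2.43, 4.89, 2.12 and 32.2. Cd74, the invariant chain of class II molecules, stood at 1.05, 1.73, 10.6 and 76.7 (log2 4.76, adjusted p = 0.073). H2-D1 of class I stood at 258, 260, 333 and 409 (log2 0.51, adjusted p = 0.11).

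Transcripts of other cell types moved unevenly in the pit sums. Of 9 tested chief cell products none passed, and their median was 1.53. Here 4 (44.4%) lay above and 2 (22.2%) below without overlap, against 22.8% and 26% of all genes tested. Clps, colipase, stood at 708, 917, 2809 and 1542 scaled CPM and Pla2g1b, a phospholipase, at 610, 739, 2913 and 969, but in GFP+ replicate 1 a single cell gave 51.4% of the Clps UMIs and a single cell 66.6% of the Pla2g1b UMIs. Pgc, pepsinogen C, stood at 9590, 9481, 8896 and 4898. The summed level of all chief products was 11555, 11704, 15067 and 7009 CPM without TMM scaling. The part of chief transcripts in the pit results was not tested beyond the exclusions given here. In the fit without the pit cells over 1% of chief UMIs 1 gene passed and none of the 40 genes did, and Tff1, Psca and Gsta1 had log2 fold changes of 0.53, 0.57 and 0.64 there.

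Of 8 tested neck cell markers none passed, and the median was -0.70. Only 1 (12.5%) lay above and 5 (62.5%) lay below without overlap, against 22.8% and 26% of all genes tested. Muc6, the mucin of neck cells, stood at 100.9, 71.2, 21.6 and 2.47 scaled CPM (log2 -2.59, adjusted p = 0.070), and Spink4, a protease inhibitor, at 106, 104, 200 and 318 (log2 1.29, adjusted p = 0.054). Gkn3 stood at 80.6, 78.8, 177 and 5.57. Summed neck markers were at 509, 514, 516 and 409 CPM without TMM scaling. None of 5 endocrine and 8 parietal markers passed, with medians of -0.86 and -0.00034, and summed levels of 77.8, 43.1, 45.1 and 19.6 CPM and of 134, 153, 134 and 136 CPM. Of the tuft list 2 genes were tested, Avil, which rose, and Ltc4s at 14.2, 13.7, 13.1 and 11.1 scaled CPM. Squamous, immune, stromal and red blood cell lists had no gene at a testable level, and each summed to under 2 CPM in every library.

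The sort effect was then compared between pit cells and 2 other cell types of the same libraries, the neck cells of cluster 0 (1121 cells) and the chief cells of cluster 1 (896 cells), by the interaction of sort and cell type with library as a block. Against neck cells 80 of 11700 genes differed (0.684%), 38 with a higher log2 fold change in pit cells and 42 with a lower one. Against chief cells 35 of 12230 differed (0.286%), 19 higher and 16 lower. Tff1 differed from neck cells by a log2 of 3.21 ± 0.40 (SE, adjusted p = 0.0063) and from chief cells by 2.17 ± 0.28 (SE, adjusted p = 0.0050). It rose in pit cells, as given above. By the same test of sort within each cell type, its log2 fold change was -2.41 in neck cells (adjusted p = 0.053). In chief cells it was -1.31 (adjusted p = 0.054), so neither passed the threshold.

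Those 2 cell types held Tff1 and Gkn1 at traces, unlike Psca, which was abundant in chief cells. Tff1 was at 44.1, 54.8, 23.8 and 14.8 CPM in chief cells without TMM scaling and at the neck levels given above, and Gkn1 at 55.5, 78.0, 21.3 and 16.4 CPM in neck cells. These traces were lower in the libraries with fewer pit cells, and the part of RNA released by pit cells in the differences was not tested. Spp1 differed from this, because chief cells held it at 281, 251, 227 and 202 CPM (log2 -0.25, adjusted p = 0.61) and the difference between the cell types was -1.34 ± 0.14 (SE, adjusted p = 0.0022). Sox4, a factor of progenitor cells, was at 81.5, 84.9, 43.0 and 24.3 CPM in pit cells and at 19.4, 17.99, 22.6 and 18.5 CPM in chief cells, a difference of -1.35 ± 0.18 (SE, adjusted p = 0.0063). Ctse, Lgals2 and Nqo1 differed from neck cells by 1.498, 1.79 and 1.53.

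**Figure D5:**
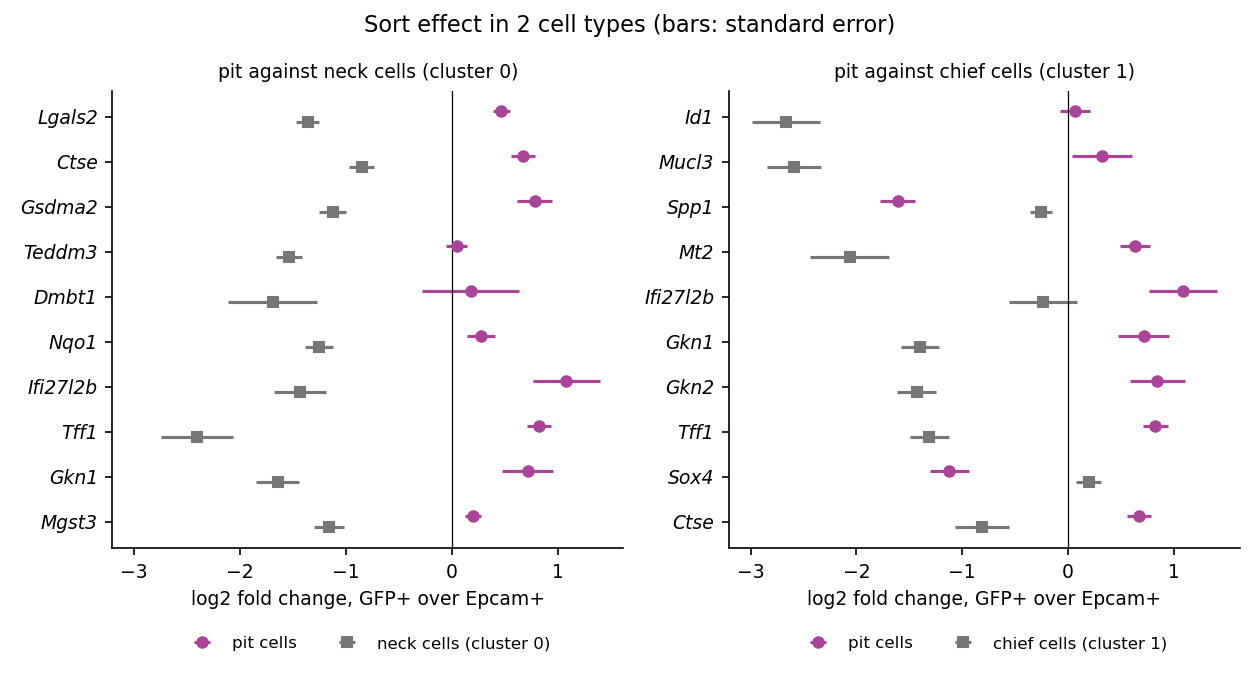
Log2 fold change of GFP+ over Epcam+ in pit cells (circles) and in neck or chief cells (squares) for the 10 genes with the smallest adjusted p of each interaction, with standard errors as bars. Pit values of Tff1, Gkn1 and Ctse lie right of 0 and those of the other cell type left of it, whereas Spp1 and Sox4 lie left in pit cells and near 0 in chief cells.

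How many genes passed varied with the fit. The count was 40 in the fit reported, between 114 (without Epcam+ replicate 1) and 156 (without Epcam+ replicate 2) when 1 library was left out, 24 without TMM factors (7 higher and 17 lower, against 23 and 17) and 0 without the pit cells that held a UMI of Mki67 or Top2a, where 1110 genes had an unadjusted p under 0.05 and Tff1, Psca and Gsta1 had log2 fold changes of 0.75, 0.85 and 0.68 without passing the test. None of the 40 genes changed direction in those of the 19 alternative fits that tested it. These fits reuse the counts by which the genes were chosen, and the sorts did not overlap for these genes. A stable direction was thus largely set in advance and is no independent check.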

How the data were processed

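Single-cell RNA-seq was made with 10x Genomics 3′ chemistry. Per the labels and methods, the authors mapped reads to mm10 with Cell Ranger 3.0.2 and deposited a matrix of raw UMI counts per gene and cell (17712 genes, 4449 cells, 4 libraries) with cell clusters from their Seurat analysis, which were used as deposited. The matrix held 21 genes with no UMI. Counts of cluster 2 cells were summed per library. The tests used edgeR 4.0.16 (R 4.3.3) with filterByExpr, TMM factors and the quasi-likelihood test of sort, without replicate block, adjusted over all genes tested by Benjamini-Hochberg. Standard errors were derived from the fold change and its F statistic. Interactions were fitted on summed cells of 2 clusters with library as a block. DESeq2 1.42.0 served as an alternative. Scripts were tested on simulated counts. Scrublet within scanpy 1.11.5 called 74 doublets, 7 of them pit cells (3, 4, 0 and 0 per library), which were kept. Thinning drew 26019 UMIs per cell, the 10th percentile of pit cells.

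Groups and replicate numbers came from the sample titles. Genes were named by a rule: list members past the threshold, the 3 most abundant members of each list, the 15 largest rises and falls with a mean of at least 50 CPM and no overlap (15 and 6 qualified), and the 10 smallest adjusted p of each interaction at 50 CPM or more. A further 17 genes past the threshold, and some list members, were named after their values were seen. The members, the 24 lists and the tests were chosen with earlier results of these data known. Gene positions are from GENCODE vM21 (GRCm38), promoters from RefSeq. Alternatives were the replicate block, leaving out each library, other scalings, filters and tools, chief cell products, doublets, depth and top cells left out, and 3 added after seeing the data. Values rest on 69 GFP+ pit cells, and counting error is smallest for abundant genes. A result for 1 gene is not reported here.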

Additional observations from a re-analysis of the deposited data

Results flagged for a closer look

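The effect of the sort differed between pit cells and another cell type, by the interaction test of edgeR (quasi-likelihood, Benjamini-Hochberg over all genes), for each gene given here. Against neck cells the log2 difference, pit minus neck, was 1.79 for Lgals2, 1.498 for Ctse, 1.83 for Gsdma2, 1.56 for Teddm3, 2.01 for Dmbt1, 1.53 for Nqo1, 2.37 for Ifi27l2b, 3.21 for Tff1, 2.24 for Gkn1 and 1.33 for Mgst3. The adjusted p ran from 0.0011 for Lgals2 to 0.0079 for Mgst3. Of these genes Tff1 alone also passed the test within pit cells. Teddm3, Dmbt1, Nqo1 and Mgst3 had log2 fold changes of 0.05, 0.18, 0.28 and 0.20 in pit cells. In neck cells theirs were -1.54, -1.69, -1.25 and -1.16, so most of the difference of these genes lay in neck cells. The neck change of Dmbt1 did not pass the test within neck cells (adjusted p = 0.26). Without TMM scaling Dmbt1 was at 33.9 and 29.5 CPM in the Epcam+ neck sums and at 13.3 and 1.49 CPM in the GFP+ ones. Its GFP+ pit sums also differed, at 204 and 48.0 CPM. The neck values of Lgals2 were 293, 352, 111 and 120 CPM in Epcam+ replicates 1 and 2 and GFP+ replicates 1 and 2, against 3720, 3635, 4599 and 4708 CPM in pit cells, without TMM scaling. Leaving out 1 library or changing the scaling or filter lost the call in 2 of 7 fits each for Tff1 and Gkn1 and in 3 of 7 for Mgst3. Over these fits the difference ran from 1.93 to 3.11 for Dmbt1, from 1.82 to 3.16 for Ifi27l2b, from 2.61 to 4.25 for Tff1 and from 1.76 to 3.02 for Gkn1.

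Against chief cells of cluster 1 the log2 difference was 2.70 for Id1, 3.02 for Mucl3, -1.34 for Spp1, 2.78 for Mt2, 1.496 for Ifi27l2b, 2.07 for Gkn1, 2.24 for Gkn2, 2.17 for Tff1, -1.35 for Sox4 and 1.48 for Ctse. The adjusted p ran from 0.0018 for Id1 to 0.0071 for Ctse. Id1, a target of bone morphogenetic protein signals, was at 1459, 1527, 1689 and 1176 CPM in pit cells and at 2.97, 2.38, 0.550 and 0.305 CPM in chief cells, so its difference rested on traces in chief cells. The same limit holds for Mucl3, Mt2, Ifi27l2b and Ctse, which reached at most 3.93, 1.34, 4.58 and 2.21 CPM in any chief sum. Among the genes named in this paragraph, Spp1 and Sox4 were the 2 with a lower log2 fold change in pit cells than in chief cells, out of 16 such genes in all. They were measured in chief cells at 202 CPM or more and at 17.99 CPM or more in every library. In the fit to genes of at least 50 CPM, 0 of 1435 genes passed against chief cells.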

How the results depend on the processing

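The number of genes past the threshold in pit cells (40) became 222 with the replicate block, 24 without TMM factors, 161 with DESeq2, 639 with genes of at least 1 UMI, 3 with genes of at least 50 CPM, 135 with the robust fit, 24 without the tenth of cells with most chief UMIs, 123 with thinned cells and 129 with each gene's top cell removed. In fits added after seeing the data it was 555 for at least 1 UMI with the robust fit, 1 without cells over 1% chief UMIs and 0 without cells with a dividing cell UMI. Leaving out 1 library gave 114 to 156, 114 without Epcam+ replicate 1, 156 without Epcam+ replicate 2, 116 without GFP+ replicate 1 and 132 without GFP+ replicate 2. In these fits 1 sort has a single library, which is assumed to vary like the other sort. Of the 40 calls, 20 remained without GFP+ replicate 1 and 35 or more without any other library. DESeq2 size factors gave 39, leaving out chief products 42 and leaving out doublets 33. Without TMM factors the median of all genes was -0.13 on the log2 scale. The cause of these changes was not tested.

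Over the 19 alternatives, the 40 genes had 743 values, since not every fit tested every gene. Of these, 561 kept their call, 182 lost it and none changed direction, which refits of the same counts could hardly show. Among 1264 values of 67 other named genes, 129 gained a call and 60 changed sign. Gkn3 reversed to -3.84 without GFP+ replicate 1 and was 1.15 without GFP+ replicate 2, from 0.33. The share of cells with a dividing cell UMI differed by 0.43 points without thinning, from -13.9. The 80 genes that differed from neck cells became 15 at 50 CPM and 24 to 188 when 1 library was left out, 24 without Epcam+ replicate 1, 188 without GFP+ replicate 1 and 170 without GFP+ replicate 2. The 35 that differed from chief cells became 70 without TMM factors, 0 at 50 CPM and 68 to 161 when 1 library was left out, 68 without GFP+ replicate 2, 102 and 103 without Epcam+ replicates 1 and 2 and 161 without GFP+ replicate 1. Replicate numbers are shared by the sorts, but no source says that they pair the libraries, and deviations of same-numbered pit sums correlated by 0.18 over all 10983 genes and by 0.40 over the 2339 genes of at least 50 CPM.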
